A study of Mus musculus with 13 samples.

Results

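The early shared Class II peaks are Sox9 binding sites of rib chondrocytes that the deposited lists place in Class II, that stand on lines 1 to 2766 of the whole rib list, and that share at least 1 bp with a peak of nasal septum chondrocytes. They number 2065 of the 27656 rib peaks, or 7.47%, and 9.90% of the 20862 Class II peaks. Lines 1 to 2766 are the first 10% of the rib list and held 2545 Class II peaks, 81.1% of which a nasal peak overlapped; over all Class II peaks that share was 34.4%. The peaks were chosen by class, by place in the rib list and by nasal overlap, so these values are described here and not tested. The rule was applied to every line, and none of the 2065 was left out by a filter.

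The samples were chondrocytes, the cells that make and live in cartilage, freed by enzyme digestion from untreated wild-type ICR mice. Rib chondrocytes were taken at postnatal day 1 and nasal septum chondrocytes at embryonic day 17.5, so cartilage and stage differ together. Of the 13 libraries of the series, the rib Sox9 and the nasal Sox9 library stand behind the 4 peak lists, and values from the other 11 were not analysed here. Each tissue had 1 Sox9 library made with the same antibody, so there is no replicate check. All intervals below are 95% exact binomial intervals over peaks and cover counting error alone. Neighbouring peaks are not independent, so intervals on neighbourhoods are too narrow. No difference between sets of peaks was tested. The labels give no number of animals and no purity of the chondrocytes, and the lists hold no expression value against which the cell type could be checked.

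Sox9 is an HMG-box transcription factor that chondrocytes need to form and to keep their identity. It binds DNA in the minor groove, often as a dimer on paired sites, and works with Sox5 and Sox6 on enhancers of cartilage matrix genes such as Col2a1 and Acan. Ribs arise from the paraxial mesoderm and the nasal septum largely from cranial neural crest, yet both form hyaline cartilage. Sites bound in both are therefore places where cells of different origin share Sox9 occupancy. Apart from further fields on the last Class I line, the lists give positions on mm9 alone, with no height, fold or sequence. The sources used here do not say what the order of the lists or the 2 classes stand for. No base sequence is shown, as no mm9 genome was used here. Gene names below are general knowledge of where these genes lie in mm9 and not part of the files. The RefSeq table of GRCm38.p6, another build, was used only to check that each named gene is on the chromosome stated.

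The first lines of the rib list were nearly filled by such peaks. The 10 earliest of them stood within the first 11 lines. Line 1 was a peak of 166 bp on chromosome 15, 12123970 to 12124135 (all positions mm9, 1-based). It lay wholly inside a nasal peak of 179 bp on line 21 of the nasal list, and the 2 centres were 5.5 bp apart. Line 3 on chromosome 1, 174238121 to 174238295, met nasal line 62 with a centre distance of 2.5 bp, and 6 nasal peaks lay within 10 kb of it. Line 6 on chromosome 6, 37348950 to 37349106, met nasal line 34 and had 23 other rib peaks within 50 kb. Line 9 on chromosome 5, 115495255 to 115495435, met nasal line 26 with centres 0.5 bp apart and had no other rib peak within 10 kb. The top of the list thus held solitary peaks and peaks in crowded stretches side by side.

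Of these 10 peaks, 8 met a nasal peak among the first 150 lines of the nasal list, and the median nasal place of all 10 was 71. The other two stood apart from that. Line 5 on chromosome 7, 86115915 to 86116077, met nasal line 2005, and line 7 on chromosome 6, 137530950 to 137531157, met nasal line 1468. The 5 peaks with the smallest sums of both places were lines 1, 9, 11, 6 and 3, whose partners stood on nasal lines 21, 26, 25, 34 and 62. Line 35 on chromosome 5, which met nasal line 30, tied with line 3 for the last of these.

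The partners of the early shared Class II peaks stood early in the nasal list, a value the rule did not use. The median nasal place was 2955 of 17440 for them (middle range from 1258 to 6500), against 9385 for the 5105 later shared Class II peaks and 6075 for the 4677 shared Class I peaks. Shared Class I peaks were taken from all lines of the rib list, so class and rib place differ together in that comparison. Each list was divided by place into deciles. A partner in decile 1 of the nasal list was found for 34.1% of the early shared Class II peaks (32.0% to 36.2%), against 3.86% of the later shared Class II peaks (3.35% to 4.42%) and 15.6% of the shared Class I peaks (14.5% to 16.6%). Over all 7170 shared Class II peaks, the early ones included, that share was 12.6%. Decile 10 of the nasal list held partners for 2.13% of the early shared Class II peaks, against 10.3% of the later ones. Sites early in the rib list thus tended to be early in the nasal list too, with wide scatter.

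**Figure D1:**
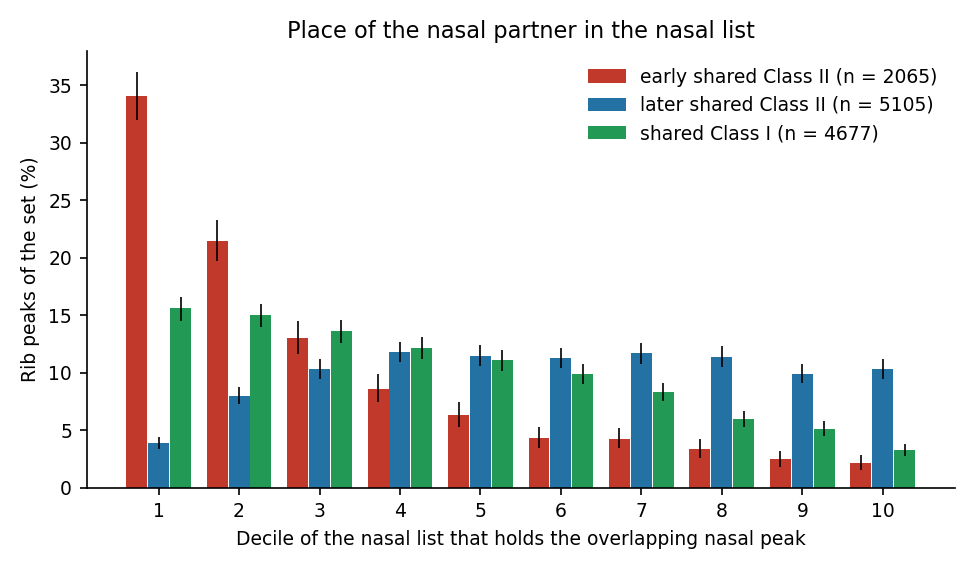
Share of the rib peaks of each set (vertical axis, %) whose overlapping nasal peak stands in each decile of the nasal list (horizontal axis), for early shared Class II, later shared Class II and shared Class I peaks; bars show shares and lines their 95% exact binomial intervals. Early shared Class II peaks stand at 34.1% in decile 1 and 2.13% in decile 10, whereas later shared Class II peaks stand at 3.86% and 10.3%.

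The relation between the places held within the early shared Class II peaks too. Cut into 4 sets of 517, 516, 516 and 516 peaks by rib place, they had median nasal places of 935, 2645.5, 4065.5 and 5328. The share with a partner in nasal decile 1 was 71.0%, 33.1%, 19.6% and 12.6% over the same 4 sets. Across the 2065 peaks the Spearman correlation of both places was 0.503, given as a description, since the peaks come from the same pair of libraries. It was 0.491 over shared Class I, 0.267 over later shared Class II and 0.517 over all shared Class II peaks, so the value was not particular to this set. The share of early Class II peaks that a nasal peak overlapped, which the rule used, was 93.1% on lines 1 to 277 and 67.9% on lines 2491 to 2766.

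**Figure D2:**
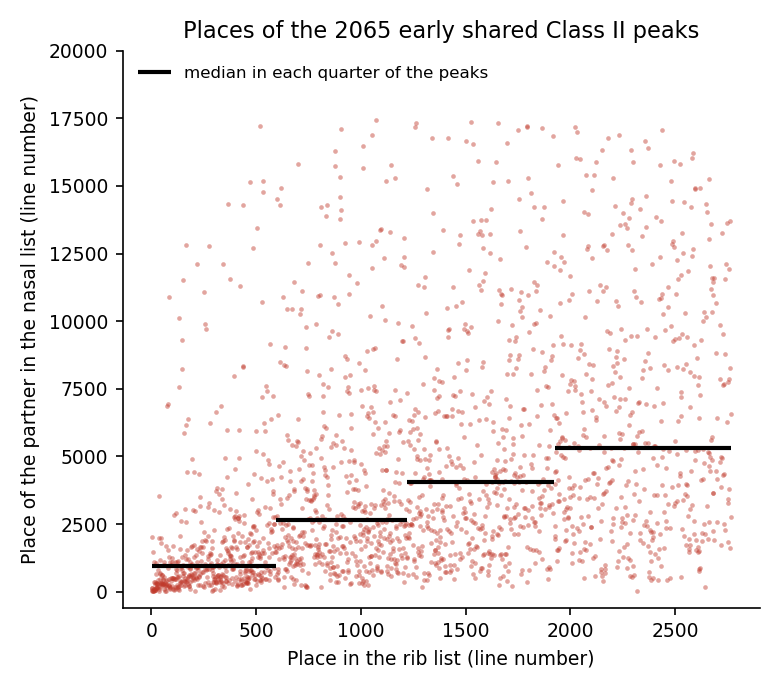
Place of each of the 2065 early shared Class II peaks in the rib list (horizontal axis, line number) and of its partner in the nasal list (vertical axis, line number); each point is a peak and black lines mark the medians of 4 sets by rib place. The medians stand at 935, 2645.5, 4065.5 and 5328, with points scattered over the whole nasal list above them.

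A small group went against this order. A partner in decile 10 of the nasal list was found for 44 of the 2065 peaks. The earliest of these in the rib list, named after their values were seen, was line 519 on chromosome 16, 93150881 to 93151027, which met nasal line 17201 and lay wholly inside that nasal peak. Line 904 on chromosome 7, 124630730 to 124630962, met nasal line 17095 and shared 204 bp with it. Line 877 on chromosome 10, 6661641 to 6661850, met nasal line 16277 by 22 bp only, with centres 146.5 bp apart. Such pairs range from near-complete to marginal contact.

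The rule asked for at least 1 shared bp, and with peaks of this width that alone keeps the centres close, so the distances are described only against other shared peaks, which overlap by definition too. The centres of early shared Class II peaks lay a median of 29 bp from those of their partners, against 33.5 bp for later shared Class II and 40.5 bp for shared Class I peaks. Centres were within 50 bp for 69.4%, against 65.8% and 57.6%. The median shared length was 142 bp of a median width of 178 bp in rib and 180 bp in nasal, and 77.2% shared at least 50% of both peaks, against 67.7% of later shared Class II and 60.1% of shared Class I peaks. Partners in nasal decile 1 were closest, with a median centre distance of 20 bp, against 62 bp for partners in decile 9 and 46.5 bp in decile 10. In decile 1 the sets differed little, as later shared Class II and shared Class I peaks both stood at 23 bp there. From decile 2 on, early shared Class II peaks were not closer than later shared ones of the same decile, apart from 35.8 bp against 36 bp in decile 7. The medians were 31.5 bp against 27 bp in decile 2, 36 bp against 32.5 bp in decile 5 and 62 bp against 40 bp in decile 9. The smaller median over all deciles was thus not seen within most deciles.

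Rib and nasal peaks showed little offset to either side and similar widths. The nasal centre lay at the higher coordinate for 48.4% of the early shared Class II peaks (46.2% to 50.6%) and at the lower for 51.2% (49.0% to 53.4%). The partner was the wider peak for 52.8% (50.6% to 55.0%), and the widths of peak and partner were almost unrelated, with a Pearson correlation across peaks of 0.0404. The nasal peak lay inside the rib peak for 393 of them and around it for 526, and 23 met more than 1 nasal peak. Seen from the other list, 2088 nasal peaks, or 12.0% of the 17440, overlapped an early shared Class II peak. Widths ran from 12 to 509 bp with a median of 178 bp, against 180 bp for early rib-only, 181 bp for later shared and 183 bp for later rib-only Class II peaks, so width hardly set them apart.

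Early shared Class II peaks stood in crowded stretches of Sox9 binding. Another rib peak lay within 10 kb of 1379 of them, or 66.8% (64.7% to 68.8%), against 60.2% of early rib-only (55.7% to 64.6%), 54.4% of later shared (53.0% to 55.7%) and 50.7% of later rib-only Class II peaks (49.8% to 51.5%). Over all Class II peaks the share was 53.4%. The nearest rib peak was a median of 4.77 kb away, against 6.08 kb, 8.13 kb and 9.70 kb for the other Class II sets in the same order. Rib-only Class I peaks came close, with a median of 4.87 kb and a rib neighbour within 10 kb for 59.4% (57.2% to 61.5%), while shared Class I peaks stood at 11.3 kb and 47.7%. Distances between 1 and 5 kb made up most of the difference. The nearest rib peak lay in that band for 34.2% of early shared Class II peaks (32.2% to 36.3%) and for 22.0% of the other Class II peaks (21.4% to 22.6%). Within 1 kb the shares were 17.0% (15.4% to 18.7%) and 15.7% (15.1% to 16.2%), and these intervals overlap. Class I peaks had a rib neighbour within 1 kb more often, in 33.3% of rib-only and 24.1% of shared ones.

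**Figure D3:**
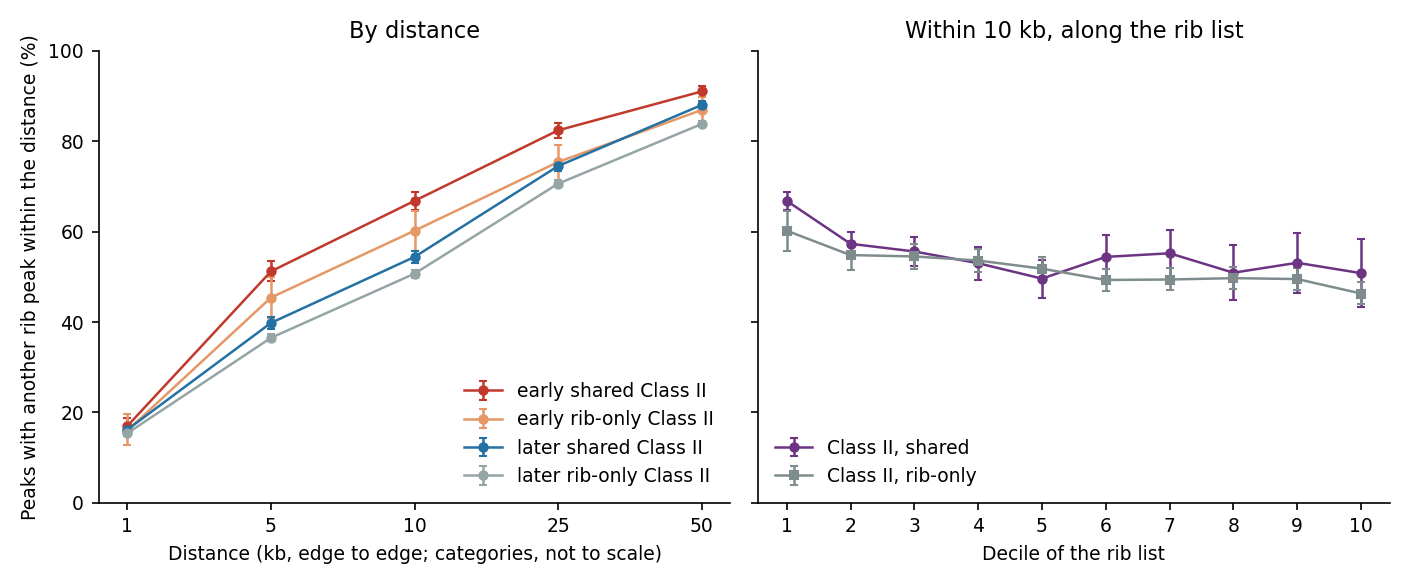
Left, share of Class II peaks with another rib peak within 1, 5, 10, 25 or 50 kb (horizontal axis, categories) for early shared, early rib-only, later shared and later rib-only peaks. Right, the same share within 10 kb by decile of the rib list (horizontal axis) for Class II peaks that a nasal peak overlaps and those that none overlaps; points are shares in % and bars their 95% exact binomial intervals. Early shared Class II peaks lie highest from 5 kb on, at 66.8% within 10 kb, and both lines at right are highest in decile 1.

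Rib-only peaks of the early lines were crowded as well. In decile 1 of the rib list, 66.8% of shared and 60.2% of rib-only Class II peaks had a rib neighbour within 10 kb. In decile 2 the shares were 57.3% (54.6% to 59.9%) and 54.8% (51.6% to 57.9%), in decile 5 they were 49.6% and 51.8%, and in decile 10 they were 50.8% (43.3% to 58.4%) and 46.3% (43.9% to 48.8%). Among the early shared Class II peaks themselves, the first of the 4 sets by place had a rib neighbour in 72.5% and the last in 61.6%. Both kinds of Class II peak were thus most often crowded at the start of the list.

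The neighbours were mostly other Class II peaks. A Class II peak lay within 10 kb of 63.5% of early shared Class II peaks, where the share over all Class II peaks was 49.6%. A Class I peak lay within 10 kb of 9.20% (7.99% to 10.5%), where the share over all Class II peaks was 8.12%, and 9.15% of later shared Class II peaks had one. Contact with Class I thus differed little between early and later shared peaks, while early rib-only peaks stood at 5.42% (3.57% to 7.84%). Another early shared Class II peak lay within 10 kb of 15.9% of them (14.4% to 17.6%), where 10.7% of all Class II peaks had one that near. Early rib-only Class II peaks had one in 14.4% (11.4% to 17.8%), so this was hardly particular to shared peaks.

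Further nasal peaks near these sites were more frequent than near later shared Class II peaks and about as frequent as near shared Class I peaks. Besides the partner, at least 1 further nasal peak lay within 10 kb of 45.4% of early shared Class II peaks (43.3% to 47.6%), against 39.4% of later shared Class II peaks (38.1% to 40.8%) and 46.5% of shared Class I peaks, and the share over all shared Class II peaks was 41.1%. Part of these were peaks that met no rib peak at all, found within 10 kb of 15.7% of early shared Class II peaks (14.1% to 17.3%), against 14.0% of later shared Class II (13.1% to 15.0%) and 23.8% of shared Class I peaks. Early rib-only Class II peaks had any nasal peak within 1 kb in 16.2% and within 10 kb in 40.8%, so 59.2% of those 480 sites lay farther than 10 kb from any nasal peak.

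Later Class II peaks near an early shared one and away from it were overlapped by nasal peaks in similar shares. Of the 1843 later Class II peaks within 10 kb of an early shared one, 28.5% (26.5% to 30.7%) were overlapped by a nasal peak, against 27.8% (27.1% to 28.5%) of the 16474 farther away. Within deciles of the rib list the direction varied. In decile 2 the shares were 55.6% (49.6% to 61.4%) near and 58.2% (56.1% to 60.4%) away, in decile 4 they were 28.4% (22.6% to 34.9%) and 35.0% (32.9% to 37.2%), and in decile 10 they were 10.1% and 10.2%. Class I peaks gave another picture. Nasal peaks overlapped 55.4% (49.3% to 61.3%) of the 278 Class I peaks within 10 kb of an early shared Class II peak, against 69.4% (68.3% to 70.5%) of the other 6516. The median rib place was 15023 for the near ones and 17069.5 for the others. Some of the near ones share a stretch, so they are fewer independent places than their number. Rib-only Class I peaks also had a Class II peak of any kind within 10 kb more often than shared ones, in 29.2% (27.3% to 31.2%) against 21.5% (20.3% to 22.7%). Early shared peaks are among those Class II neighbours, so these shares do not tell whether the lower overlap was particular to their surroundings.

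These peaks made up a larger share of Class II in longer chains of binding sites. Rib peaks of either class were joined into chains where at most 10 kb lay between neighbours. Early shared peaks made up 7.06% (6.55% to 7.58%) of the Class II peaks that stood alone, 10.3% (9.45% to 11.1%) of those in pairs, 13.1% (12.1% to 14.2%) in chains of 3 or 4, 15.7% (14.1% to 17.3%) in chains of 5 to 9 and 17.3% (13.0% to 22.4%) in chains of at least 10. Of the 28 chains of at least 10 rib peaks, 22 held an early shared Class II peak. Longer chains have more peaks that could be one. The share of chains that held one was 5.27% for lone peaks, 14.2% for pairs, 28.8% for chains of 3 or 4 and 54.2% for chains of 5 to 9. Chains of at least 5 peaks held 17.2% of the early shared Class II peaks (15.6% to 18.9%), against 11.7% of early rib-only and 11.4% of later shared Class II peaks, and 10.8% of all Class II peaks. Still, 33.2% of the early shared Class II peaks had no rib peak within 10 kb.

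Fixed windows of 100 kb gave a gradient in the same direction. Early shared peaks made up 5.89% (5.19% to 6.65%) of Class II peaks in windows with 1 Class II peak, 10.5% (9.39% to 11.8%) with 4, and 15.0% (12.9% to 17.3%) with 10 or more. Later shared peaks made up 21.4% (20.2% to 22.7%) and 27.0% (24.4% to 29.8%) at both ends, and early rib-only peaks 1.94% (1.54% to 2.41%) and 2.23% (1.44% to 3.31%). Early rib-only peaks were not flat between these ends, with their highest share of 2.97% (2.43% to 3.59%) at 5 or 6 Class II peaks. At least 1 early shared Class II peak stood in 1646 windows, or 18.5% of the 8919 windows with a Class II peak. Of these, 1324 held 1, 251 held 2 and 71 held 3 or more. Most sites were therefore the sole early shared peak of their window.

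**Figure D4:**
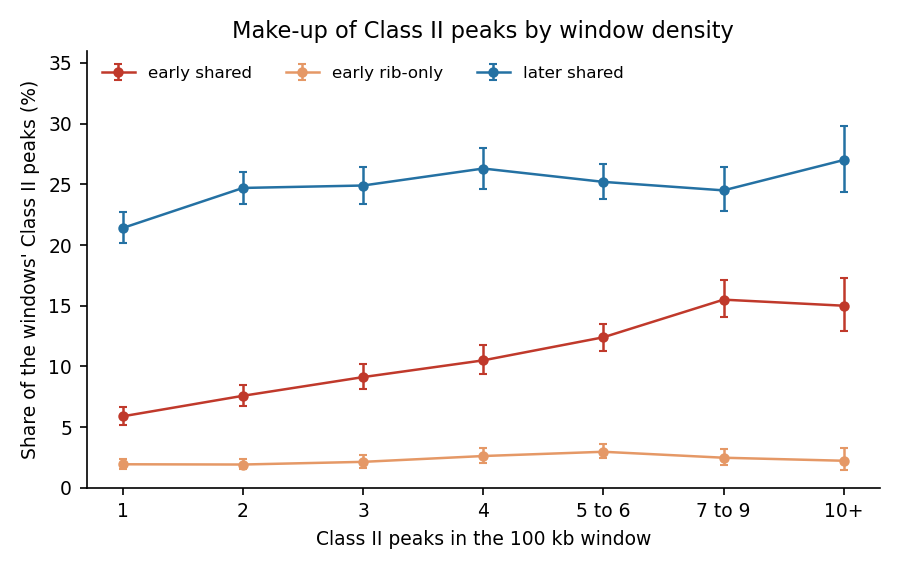
Share of Class II peaks (vertical axis, %) that are early shared, early rib-only or later shared, by the number of Class II peaks in the 100 kb window (horizontal axis); points are shares over all windows of that density and bars 95% exact binomial intervals. The early shared share is 5.89% at 1 Class II peak and 15.0% at 10 or more, while the early rib-only share is 1.94% and 2.23%, with its highest value of 2.97% at 5 to 6.

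The window with the most early shared Class II peaks holds Col2a1, the gene of type II collagen, the main collagen of cartilage. On chromosome 15, 97800001 to 97900000, 7 of the 27 Class II peaks were early shared ones. All 7 rib peaks of the window on the early lines were Class II and overlapped by a nasal peak, and 12 of its Class II peaks were overlapped in all. The earliest was line 322 at 97857018 to 97857188, which met nasal line 3605, and the one with the earliest partner was line 386 at 97844786 to 97844996, which met nasal line 850. The widest of all early shared Class II peaks, 509 bp at 97827912 to 97828420, was in this window too, on line 627. It stood beside the chain of Class I peaks, with 10 of them within 10 kb, and held a nasal peak of 238 bp from line 10884 entirely within it. The other 6 lay on the far side of that chain at higher coordinates, from 97844786 to 97885914.

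Xylt1 encodes a xylosyltransferase that starts glycosaminoglycan chains on proteoglycan core proteins. In its window on chromosome 7, 124600001 to 124700000, 5 of the 18 Class II peaks were early shared ones and no Class I peak was present. Line 26 at 124628682 to 124628877 met nasal line 168. Its early shared neighbour at 124630730 to 124630962, described above, met nasal line 17095. These neighbouring sites thus stood near opposite ends of the nasal list. Line 488 at 124617857 to 124618018 met nasal line 477.

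Creb3l2 encodes a transcription factor of the secretory pathway that acts on genes for protein export in chondrocytes. Its window on chromosome 6, 37300001 to 37400000, had the second largest number of Class II peaks, 22, of which 3 were early shared ones. These stood on lines 6, 1166 and 2234 and met nasal lines 34, 2430 and 1485. The window of 100 kb that reaches to the start of Acan, the gene of the proteoglycan aggrecan, on chromosome 7, 86100001 to 86200000, held 3 of 14. Their rib lines were 5, 841 and 2677, with nasal lines 2005, 7572 and 10346. A further 3 Class II peaks of this window stood on the early lines without a nasal overlap. The partners in the Creb3l2 window thus stood earlier in the nasal list, except that nasal line 2430 was behind line 2005 of the Acan stretch. These windows were singled out after their values were seen. The Creb3l2 and Acan windows are not among the 10 with the most early shared peaks, and 71 windows held 3 or more. Early shared peaks made up 15.0% (12.9% to 17.3%) of the Class II peaks over all windows with 10 or more of them. Against that share, 3 of 22 in the Creb3l2 window was not a high count, and 3 of 14 in the Acan stretch rests on few peaks.

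**Figure D5:**
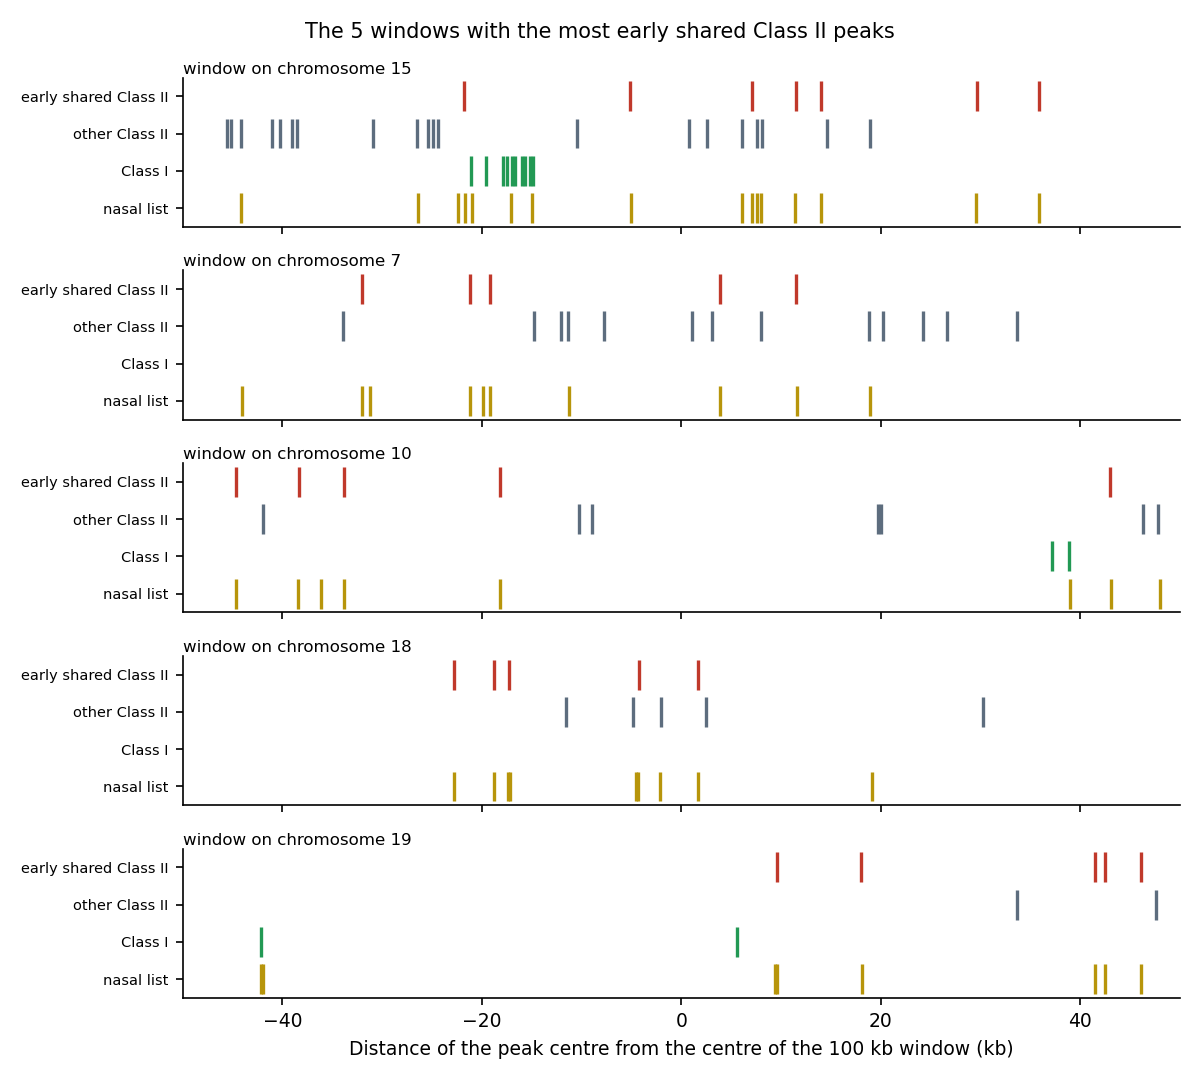
Positions of peak centres, as distance from the window's centre in kb (horizontal axis), in the 5 windows of 100 kb with the most early shared Class II peaks; each tick is a peak, and rows show early shared Class II, other Class II, Class I and nasal peaks. In the window on chromosome 15, 6 of the 7 early shared Class II peaks lie to the right of the 10 Class I peaks.

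The other leading windows were of several kinds. On chromosome 18, 80700001 to 80800000 held 5 early shared peaks among 10 Class II peaks and no Class I peak, with the earliest on rib line 101 and nasal line 94. On chromosome 10, 76100001 to 76200000 held 5 of 12, the earliest on line 128 with nasal line 1142. On chromosome 19, 42000001 to 42100000 held 5 of 7, with rib lines from 649 to 2757 and nasal lines from 3595 to 10447. The partners in the window on chromosome 18 stood on nasal lines 94 to 4694, mostly earlier than those on chromosome 19. On chromosome 1, 92700001 to 92800000 held 4 of 8, on rib lines 11, 39, 68 and 561, which met nasal lines 25, 450, 400 and 4716. It is one of 14 windows with 4 early shared peaks, of which the first 5 in chromosome order are named. The other four, on chromosome 2 from 164200001, chromosome 4 from 107200001 and chromosome 6 from 136800001 and 137500001, had 9 to 13 Class II peaks each.

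Early shared Class II peaks themselves rarely formed chains. Joined over at most 10 kb, 1736 stood alone, 142 pairs and 11 triples were formed, and the longest chains, 3 in number, had 4 peaks. The longest ran over 19.6 kb on chromosome 10, 120053831 to 120073460, with rib lines 378, 312, 406 and 368 and nasal lines 1140, 1017, 3651 and 1513 in order of position. Its 4 peaks thus stood close together in the rib list. The others lay on chromosome 10, 76097038 to 76116272, and on chromosome 17, 71078221 to 71096329. None of these 3 chains held a Class I peak, and they held 4, 7 and 6 nasal peaks.

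Dense Class II windows could lack these peaks altogether. On chromosome 9, 63500001 to 63600000 held 13 Class II peaks, 6 of them overlapped by a nasal peak, and its first rib peak stood on line 8862. On chromosome 12, 74900001 to 75000000 also held 13 Class II peaks, 3 of them overlapped, and began on line 2815, just past the early lines. The third, on chromosome 17 from 12300001, held 13 and began on line 2997. The next, on chromosome 16 from 43500001, held 12 and began on line 3768, and the fifth, on chromosome 2 from 83500001, held 11, of which the first, on line 2267, was an early rib-only peak. Thus 4 of these 5 windows held no rib peak of the early lines at all. They were chosen for lacking early shared peaks, which fill most of the early lines, so this largely follows from the choice. Of the 92 windows with 10 or more Class II peaks, 78 held an early shared one.

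The limit at line 2766 cut through a continuous order. The last peaks inside it were lines 2764, 2765 and 2766, with nasal lines 8276, 2741 and 6555. The first shared Class II peaks beyond it were lines 2767, 2771 and 2774, with nasal lines 5663, 4507 and 2852. Their values overlap.

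Early shared Class II peaks were spread over all 20 chromosomes of the lists in near-constant proportion to Class II. They made up from 8.67% (6.86% to 10.8%) of Class II peaks on chromosome 12 to 11.4% (9.48% to 13.6%) on chromosome 15 among autosomes, and these intervals overlap. Per Mb of the span covered by rib peaks, the highest density was 1.12 on chromosome 19 and the lowest autosomal one 0.623 on chromosome 12. Chromosome X stood apart, with 8 of its 199 Class II peaks, or 4.02% (1.75% to 7.77%), against 9.95% (9.55% to 10.4%) over the autosomes. Of the X-linked Class II peaks, 6.53% (3.52% to 10.9%) stood on the early lines, against 12.3% (11.8% to 12.7%) of the autosomal ones, and 8 of these 13 were shared.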

How the data were processed

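Rib and nasal septum chondrocytes of ICR mice were fixed in 1% formaldehyde for 10 minutes, 20000000 cells entered each ChIP, and libraries were amplified by 18 PCR cycles, per the labels' protocols. Each list deposited by the authors holds a chromosome and 2 coordinates per peak, on mm9, per the submitters' processing notes. No further value is given, apart from further fields on the last Class I line. Aligner, peak caller, thresholds, control library, class definition, line order and read depth: not given in the sources used here. On chromosome 7, 150 rib peaks lie past every gene that GRCm38.p6 places there, so that annotation was used for no position. Starts were raised by 1 to 1-based positions. The last Class I line, written with spaces and further fields, was read like the others.

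Place means line number, and deciles divide a list by place into 10 parts. Overlap meant at least 1 shared bp, and where several nasal peaks overlapped a rib peak, the partner was the one with the longest shared length. Distances run edge to edge. Windows were fixed bins of 100 kb, with peaks assigned by centre. Regions named are the 10 windows with the most early shared peaks (ties in chromosome order), the longest chains of such peaks, the 10 earliest peaks, the 5 smallest sums of places and the 5 densest Class II windows without such a peak. The Creb3l2 and Acan windows and the peaks with partners in nasal decile 10 were named besides these, after their values were seen. Peaks and regions were chosen with earlier results of these data known. Planned comparisons with motifs, start sites and gene lists were not run, for want of mm9 sequence and gene models. The routines recovered planted overlaps in simulated lists, and bedtools 2.31.1 gave another count of overlapping or near nasal peaks for 0 of the 27656 rib peaks. Scripts ran in Python 3.11.15 with scipy 1.17.1 for intervals and pandas 2.3.3, numpy 2.4.6 and matplotlib 3.10.9 for the rest.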

Additional observations from a re-analysis of the deposited data

How the results depend on the processing

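Of 33 recomputed values, 9 stayed within the interval of the value given above, or for a count within 1.5 times. The other 24 follow from moving a limit or distance, except where fewer peaks or another denominator entered. The number of peaks, 2065, was 1595 under an overlap of 50% of each peak, 2089 with centres within 200 bp and 2143 with gaps of up to 1 kb. It was 1164 for the first 5% of the rib list and 3434 for the first 20%. The median nasal place, 2955, was 2570 with at least 50% of both peaks shared, 1822.5 for the first 5% and 4446.5 for the first 20%. For distances of 1, 5, 25 and 50 kb in place of 10 kb, the share with another early shared Class II peak was 1.45%, 9.93%, 27.0% and 38.1%, that with any rib peak 17.0%, 51.2%, 82.4% and 91.0%, and that with a Class I peak 0.872%, 4.94%, 19.5% and 34.2%. The share with a further nasal peak was 31.8%, 64.1% and 79.3% for 5, 25 and 50 kb. With at least 50% of both peaks shared, 11.6% had another such peak within 10 kb. Windows with 3 or more numbered 71 at 100 kb, 67 when shifted by 50 kb, 35 at 50 kb and 123 at 200 kb. The highest over the lowest autosomal value was 1.80 per Mb and 1.32 as a share of Class II peaks. No paired analysis was possible because each tissue has 1 Sox9 library. Depth, peak strength and replicate spread are unknown and limit every statement to these lists.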
